A study of Mus musculus with 6 samples.

Results

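The genes described here are the core of the DNA replication machinery and of deoxynucleotide supply, 47 mouse genes listed by function. A probe was assigned to a gene through the RefSeq accession printed for it, and 53 of the 39429 probes on the array matched a gene of the list. All 47 genes were measured, each of them well above background on all 6 arrays by its chosen probe, and they stand among 28555 features (genes, or single probes with no gene name) that entered the comparison. Of the 47, 12 act in origin licensing, 8 in origin firing and the CMG helicase, 9 are polymerase and primase subunits, 9 belong to the clamp, the clamp loader, RPA and lagging-strand processing, 5 supply nucleotides, and 4 act in chromatin assembly and DNA methylation maintenance behind the fork.

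The RNA came from C2C12 cells, an established mouse myoblast line that leaves the cell cycle and fuses into myotubes when serum is lowered. In the si-SYISL group (3 arrays) the cells had received small interfering RNA against the long non-coding RNA SYISL, and in the si-NC group (3 arrays) a control small interfering RNA. Both groups were grown in 10% fetal bovine serum, transfected, and moved to 2% horse serum for 2 days, so the comparison is between differentiating cultures and holds no growing or untransfected cells. Total RNA of whole cultures (1 µg per sample) was labelled with Cy3 and hybridised to single-colour Agilent arrays, to ask how expression changes across the genome when SYISL is knocked down. The gene table used here pairs no probe with SYISL, and the level of SYISL itself was not measured. A whole-culture measurement cannot tell fewer replicating cells from less RNA per replicating cell.

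Replication starts with licensing: the origin recognition complex, Cdc6 and Cdt1 load the MCM helicase onto DNA, and geminin blocks a further round by binding Cdt1. The kinase Cdc7 with its activator Dbf4, together with cyclin-dependent kinases, then recruits Cdc45 and the GINS complex to turn the loaded MCM into the active CMG helicase, and polymerases held by the PCNA clamp copy the strands from deoxynucleotides that ribonucleotide reductase and thymidylate enzymes provide. Many of these genes are targets of E2F transcription factors, which are held in check by the retinoblastoma protein family when myoblasts withdraw from the cycle.

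Levels are given as log2 signal relative to the 75th percentile of the same array, so a level compares samples for one probe and never one gene with another. In each group, the arrays of replicates 1 and 3 were closer to each other than repeated spots of a probe are within an array. Chi-square per probe, over 399 probes with repeated spots, came to 0.214 for the si-SYISL pair and 0.252 for the si-NC pair, and to between 24.7 and 163 for the 13 other pairs of arrays. They were therefore averaged and counted as 1 sample, which leaves 2 samples in each group, the sample of replicates 1 and 3 and the sample of replicate 2, in that order wherever a pair of levels is given. For the 47 genes, replicates 1 and 3 lay at most 0.07 log2 apart in si-SYISL and at most 0.08 in si-NC. The labels do not say that the samples came from separate cultures, so p-values measure the spread between these samples only. Between 87.9% and 90.6% of spots on the si-SYISL arrays were well above background, and between 78.2% and 84.6% on the si-NC arrays, with 0 saturated. The median feature was 0.16 log2 higher in si-SYISL, and differences are given as si-SYISL minus si-NC after this shift was subtracted, with the standard error (SE) of the limma fit on 2 samples per group. Adjusted p-values (limma, Benjamini-Hochberg over all 28555 features, threshold 0.05) test the difference before that subtraction, and counts of overlap between groups use the levels as measured.

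Most replication genes sat lower, relative to the median feature, in si-SYISL than in si-NC cells, but by small amounts, and 0 of the 47 passed the adjusted test. The median difference over the 47 genes was -0.30 log2, with 44 genes below the median feature and 3 above it (Cdc7, Tyms and Asf1b). Under quantile normalisation the median was -0.18 log2 and 37 genes were below. Before the common shift was subtracted the median was -0.14 log2, with 30 genes below 0 and 17 above. The adjusted limma test called 0% of all features too, while 6462 had an unadjusted p under 0.05. A variance trend with robust estimation called 904 features and 0 of the 47 genes.

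For 21 of the 47 genes (44.7%) both si-SYISL samples lay below both of the si-NC samples, where 15.8% of all features had this order. That share of all features depended on the normalisation. It was 24.1% under quantile normalisation (21 of the 47 genes) and 24.997% with a median shift (24 genes). Under normexp background it was 14.8% (22 genes). With the levels as measured, the opposite order was seen for 3 of the 47 (Cdc7, Tyms and Chaf1b), where 46.3% of all features had it. The groups overlapped for the other 23. The share with the opposite order is given for the levels as measured only. At an unadjusted p under 0.05, 7 of the 47 genes were lower in si-SYISL (Cdc6, Gmnn, Mcm3, Dbf4, Rfc3, Rrm2 and Uhrf1), beside 5.85% of all features, and 0 were higher, beside 16.8% of all features. The smallest adjusted p among the 47 was 0.148, for Uhrf1. Of the 47 genes, 14 (29.8%) fell within the lowest 10% of all differences. The histogram of all differences shows this displacement to the left and that the replication genes stay well inside the range of the other features.

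**Figure D1:**
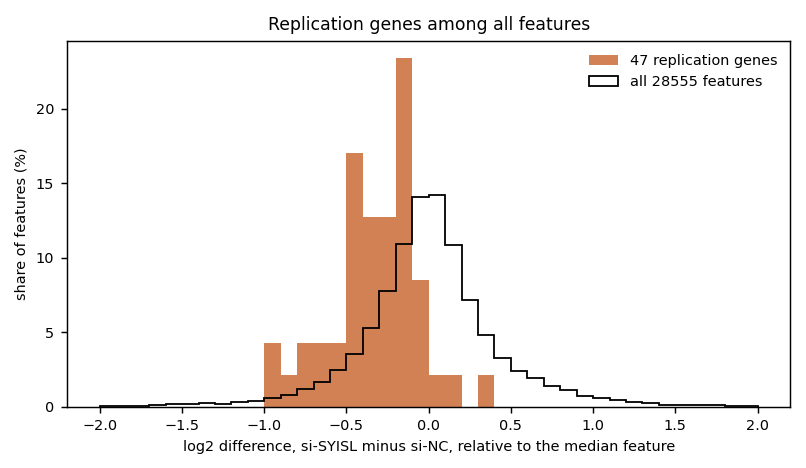
Share of features (vertical axis, %) by log2 difference, si-SYISL minus si-NC, relative to the median feature (horizontal axis), for the 47 replication genes (filled bars) and all 28555 features (line). The 47 genes lie between -0.95 and 0.31 with a median of -0.30.

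E2F-type words, which did not enter the choice of these genes, were found in a minority of their promoters, but in a larger share than over all genes. RefSeq (GRCm38.p6) gave promoters, from 250 bases before to 50 bases after the start, for 39 of the 47 genes, and 8 (Gmnn, Mcm4, Gins1, Gins2, Gins4, Prim2, Pole and Rfc2) had no entry. The words TTTCCCGC, TTTCGCGC, TTTGCCGC and TTTGGCGC, forms of the E2F recognition sequence, were searched on both strands, and words were allowed to overlap. At least 1 word was found in a promoter of 15 of the 39 genes (38.5%), against 704 of 27025 genes in the whole table (2.60%) and 3.65% of the named genes that were measured. By role, the words were present in 7 of 10 licensing genes, 4 of 7 polymerase genes, 2 of 8 clamp, loader and lagging-strand genes, 1 of 5 firing genes, 1 of 4 chromatin genes and 0 of 5 nucleotide supply genes. A narrower search for the first and the last of these words found 12 of 39 genes, against 1.80% of all genes.

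**Figure D2:**
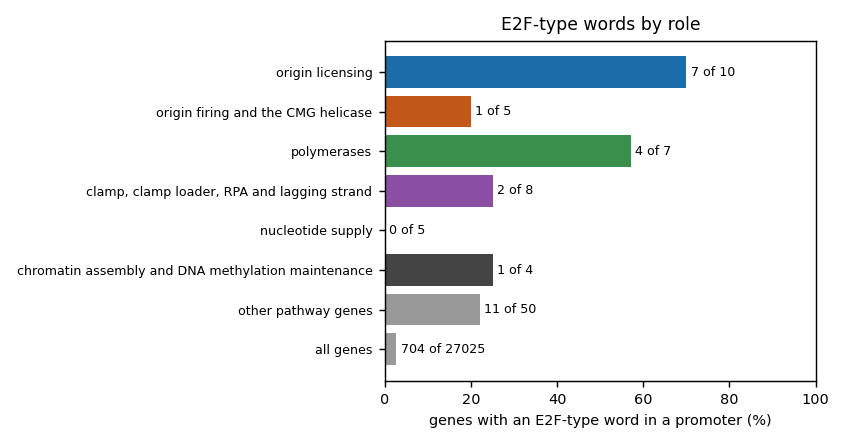
Percentage of genes (horizontal axis) with at least 1 of the 4 E2F-type words in a promoter, for each role, the other pathway genes and all genes in the RefSeq table; the counts stand beside the bars. Licensing genes (7 of 10) and polymerase genes (4 of 7) stand highest, and all genes are at 2.60%.

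The gene with the smallest p in each of the 6 roles that had a promoter entry is shown, to set promoters with the words beside promoters without them. Capitals mark the E2F-type words, each line runs from 5′ to 3′ on the gene's strand.
Cdc6 (chr11:98907901-98908200, plus strand): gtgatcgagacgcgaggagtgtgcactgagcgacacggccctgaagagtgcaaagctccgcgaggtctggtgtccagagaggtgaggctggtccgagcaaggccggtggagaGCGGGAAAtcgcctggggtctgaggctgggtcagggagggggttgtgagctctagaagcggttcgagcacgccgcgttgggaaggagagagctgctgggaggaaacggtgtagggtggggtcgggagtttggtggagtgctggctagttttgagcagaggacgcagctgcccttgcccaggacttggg
Dbf4 (chr5:8422667-8422966, minus strand): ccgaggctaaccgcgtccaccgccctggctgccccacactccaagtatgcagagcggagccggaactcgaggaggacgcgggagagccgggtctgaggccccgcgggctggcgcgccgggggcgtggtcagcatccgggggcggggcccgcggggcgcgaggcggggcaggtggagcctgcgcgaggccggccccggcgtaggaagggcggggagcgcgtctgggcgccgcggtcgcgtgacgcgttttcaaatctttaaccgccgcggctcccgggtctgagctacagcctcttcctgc
Pola1 (chrX:93632106-93632405, minus strand): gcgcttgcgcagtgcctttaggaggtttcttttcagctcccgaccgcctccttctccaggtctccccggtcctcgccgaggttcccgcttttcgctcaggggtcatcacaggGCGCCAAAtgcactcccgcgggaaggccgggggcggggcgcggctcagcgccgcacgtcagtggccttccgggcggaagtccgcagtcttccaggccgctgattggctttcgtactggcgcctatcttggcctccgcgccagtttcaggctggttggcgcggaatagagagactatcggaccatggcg
Rfc3 (chr5:151651159-151651458, minus strand): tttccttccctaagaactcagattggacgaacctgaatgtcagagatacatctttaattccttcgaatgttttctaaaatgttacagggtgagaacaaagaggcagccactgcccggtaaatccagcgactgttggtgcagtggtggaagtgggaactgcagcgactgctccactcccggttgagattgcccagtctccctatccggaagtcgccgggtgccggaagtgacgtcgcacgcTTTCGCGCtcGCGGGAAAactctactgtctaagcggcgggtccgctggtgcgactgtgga
Rrm2 (chr12:24708004-24708303, plus strand): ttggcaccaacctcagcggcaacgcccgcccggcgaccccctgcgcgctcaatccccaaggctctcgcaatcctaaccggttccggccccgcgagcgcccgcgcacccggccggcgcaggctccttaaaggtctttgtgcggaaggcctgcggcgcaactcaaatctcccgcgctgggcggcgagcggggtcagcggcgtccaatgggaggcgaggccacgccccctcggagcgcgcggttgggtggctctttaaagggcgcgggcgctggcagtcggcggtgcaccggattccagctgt
Uhrf1 (chr17:56304063-56304362, plus strand): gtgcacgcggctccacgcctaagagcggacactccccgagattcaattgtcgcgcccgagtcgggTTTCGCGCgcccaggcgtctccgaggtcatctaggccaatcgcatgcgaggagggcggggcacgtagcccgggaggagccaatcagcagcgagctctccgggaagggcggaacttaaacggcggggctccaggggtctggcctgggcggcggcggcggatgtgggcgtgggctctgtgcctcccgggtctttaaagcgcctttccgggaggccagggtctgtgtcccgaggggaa
The Cdc6 promoter holds 1 word, on the opposite strand, whose first base lies at -138 from the start, and Pola1 holds 1 at the same distance and also on the opposite strand. Rfc3 holds 2 words around its start, and the promoter of Uhrf1 shown, the second of 2 in the table, holds 1 at -185. It was shown because the promoter with the most words was taken, and the first promoter of Uhrf1 holds 0. Dbf4 and Rrm2 have none of the 4 words in this window, and both genes were lower in both si-SYISL samples. Genes with a word had a median difference of -0.42 log2 (15 genes, 8 of them lower in both si-SYISL samples), and genes without it -0.30 log2 (24 genes, 9 lower in both). The ranges of these groups overlapped, from -0.95 to -0.04 with a word and from -0.79 to 0.31 without. The 8 genes with no promoter entry had a median of -0.31 log2, and 4 of them were lower in both.

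Licensing genes had a median difference of -0.35 log2, and all 12 lay below the median feature. Cdt1 lay above it under normexp background (0.04) and quantile normalisation (0.10), and Cdt1, Mcm2, Mcm6 and Mcm7 lay above it with replicates 1 and 3 alone (0.08, 0.05, 0.05 and 0.09). In 7 of the 12 (Orc1, Orc2, Orc6, Cdc6, Gmnn, Mcm3 and Mcm4) both si-SYISL samples were below both si-NC samples, and 5 overlapped. Cdc6, the loader that brings the MCM helicase to the origin recognition complex, had levels of -3.86 and -4.14 in si-SYISL, against -3.43 and -3.00 in si-NC. The 2 si-SYISL samples were the lower ones and the groups did not overlap. Its difference of -0.95 ± 0.20 log2 (SE, adjusted p = 0.157) was the lowest of the 47, and a dimmer probe for the same transcript gave -0.81. That rank depended on background handling. Under normexp background Cdc6 was at -0.63 log2, above Uhrf1 (-0.91), Gmnn (-0.72), Dbf4 (-0.632) and Mcm3 (-0.629).

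Geminin (Gmnn), which binds Cdt1 and prevents relicensing, had levels of -1.34 and -1.30 in si-SYISL, against -0.86 and -0.46 in si-NC. The si-SYISL samples agreed closely and both lay below the si-NC samples, a difference of -0.82 ± 0.17 log2 (SE, adjusted p = 0.158). Cdt1, the partner of geminin in licensing, had levels of 0.10 and 0.25 in si-SYISL, against -0.07 and 0.18 in si-NC. These groups overlapped, and the relative difference of Cdt1 was -0.04 ± 0.15 log2 (SE), which took the opposite sign under quantile normalisation (0.10).

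The MCM subunits, which form a single hexameric helicase, did not lie equally low. Mcm3 had levels of -0.13 in each si-SYISL sample, against 0.23 and 0.41 in si-NC. The si-SYISL samples were again the lower ones, and the difference was -0.62 ± 0.12 log2 (SE, adjusted p = 0.162). Mcm2 had levels of 0.73 and 0.48 in si-SYISL, against 0.58 and 0.90 in si-NC, with the groups overlapping and a difference of -0.30 ± 0.17 log2 (SE). Mcm4, lower in both si-SYISL samples, and Mcm5, which overlapped, differed by -0.36 and -0.43 log2, and Mcm6 and Mcm7, which overlapped too, by -0.14 and -0.19 log2. Among the origin recognition complex genes, Orc1, the subunit whose amount varies through the cell cycle in mammals, differed by -0.71 ± 0.22 log2 (SE, adjusted p = 0.234). Under normexp background Orc1 was at -0.49 log2. Orc2 and Orc6 differed by -0.35 and -0.30 log2. The remaining origin recognition subunits, counted among the other pathway genes, were at -0.03 log2 (Orc3), -0.01 (Orc4) and -0.43 (Orc5), with the measured levels of Orc3 and Orc4 higher in both si-SYISL samples.

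**Figure D3:**
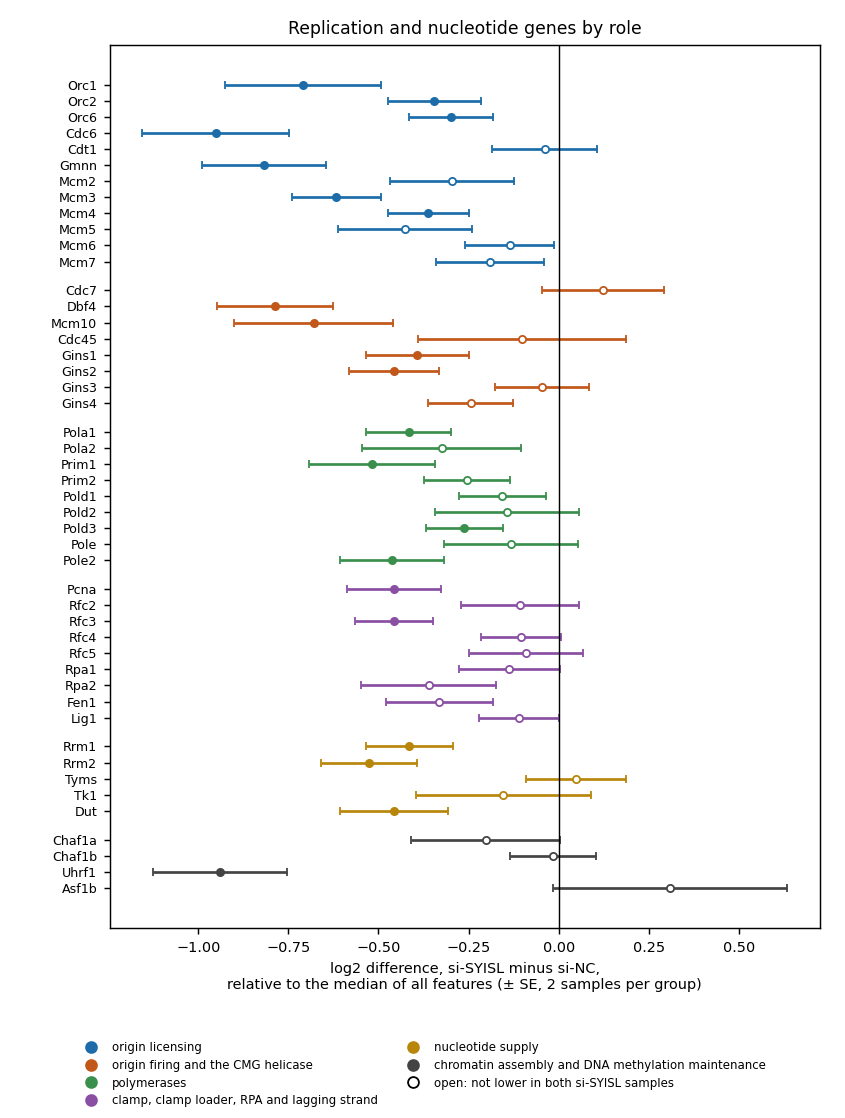
Log2 difference, si-SYISL minus si-NC, relative to the median of all features (horizontal axis) for each of the 47 genes, grouped by role; bars are ± 1 SE of the limma fit on 2 samples per group, and filled points are the 21 genes with both si-SYISL samples below both si-NC samples. Cdc6 (-0.95) and Uhrf1 (-0.94) lie farthest left, and Cdc7, Tyms and Asf1b lie right of 0.

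Firing and CMG genes had a median difference of -0.32 log2, with 4 of 8 (Dbf4, Mcm10, Gins1 and Gins2) lower in both si-SYISL samples, 1 (Cdc7) higher in both, and 3 overlapping. Dbf4, the subunit that activates the Cdc7 kinase, had levels of -0.05 and -0.03 in si-SYISL, against 0.40 and 0.76 in si-NC. Both si-SYISL samples were below both si-NC samples, and the difference was -0.79 ± 0.16 log2 (SE, adjusted p = 0.156). Cdc7 itself had levels of -5.54 and -5.15 in si-SYISL, against -5.62 and -5.63 in si-NC. Its si-SYISL samples were the higher ones and its difference was 0.12 ± 0.17 log2 (SE), but a dimmer probe for the same transcript gave -0.58. The probes of Cdc7 thus had opposite signs, and its direction is not settled by these arrays.

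Mcm10, which joins the helicase as it is activated, had levels of -1.53 and -1.87 in si-SYISL, against -1.41 and -0.95 in si-NC. The groups were separate, though the samples of replicates 1 and 3 lay close together, and the difference was -0.68 ± 0.22 log2 (SE, adjusted p = 0.252). For the GINS subunit Gins2 the levels were -2.60 and -2.70 in si-SYISL, against -2.28 and -2.44 in si-NC, a difference of -0.46 ± 0.13 log2 (SE, adjusted p = 0.250) with no overlap. The other GINS subunits, Gins1, Gins3 and Gins4, differed by -0.39, -0.05 and -0.24 log2. Cdc45, the remaining CMG component, had levels of -3.55 and -3.69 in si-SYISL, against -3.29 and -4.08 in si-NC. The widest gap for Cdc45 lay between the si-NC samples, with si-SYISL between them, and its difference was -0.10 ± 0.29 log2 (SE).

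All 9 polymerase and primase genes lay below the median feature (Pole turned to 0.01 log2 under quantile normalisation), with a median difference of -0.26 log2. Of them, 4 (Pola1, Prim1, Pold3 and Pole2) were lower in both si-SYISL samples. With replicates 1 and 3 alone Pold2 and Pole lay above the median feature (0.15 and 0.24), and the others below it. Pola1, the catalytic subunit of the polymerase that starts each new strand, had levels of -0.63 and -0.54 in si-SYISL, against -0.39 and -0.27 in si-NC. The groups did not overlap, and the difference was -0.42 ± 0.12 log2 (SE, adjusted p = 0.273). Prim1, the catalytic primase subunit that works with it, had levels of 0.83 and 0.74 in si-SYISL, against 0.94 and 1.34 in si-NC. Here replicate 2 of si-NC stood well above the other 3 samples, and the difference was -0.52 ± 0.18 log2 (SE, adjusted p = 0.288).

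Pole2, a subunit of the leading-strand polymerase, had levels of -1.73 and -1.90 in si-SYISL, against -1.63 and -1.40 in si-NC, separate groups with a difference of -0.46 ± 0.14 log2 (SE, adjusted p = 0.280). The catalytic subunits of the main replicative polymerases stood nearer the median feature, Pold1 at -0.16 and Pole at -0.13 log2, with overlapping groups. Pola2, Prim2, Pold2 and Pold3 differed by -0.32, -0.25, -0.14 and -0.26 log2.

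Clamp, clamp loader, RPA and lagging-strand genes had a median difference of -0.14 log2, with 2 of 9 (Pcna and Rfc3) lower in both si-SYISL samples and 7 overlapping, although all 9 lay below the median feature. That median moved to -0.33 log2 with the mean of probes, to -0.02 under quantile normalisation, and to between -0.32 and -0.04 with 1 sample left out, the ends being without the averaged si-SYISL arrays and without replicate 2 of si-SYISL. Under quantile normalisation Rfc2, Rfc4, Rfc5 and Lig1 turned to between 0.02 and 0.04 log2 above the median feature. With replicates 1 and 3 alone Rfc2, Rfc4, Rfc5 and Rpa1 lay above it (0.15, 0.02, 0.18 and 0.10), and the others below it. Pcna, the sliding clamp, had levels of 3.26 and 3.39 in si-SYISL, against 3.52 and 3.71 in si-NC. Both si-SYISL samples were lower, by -0.46 ± 0.13 log2 (SE, adjusted p = 0.263). Rfc3, a clamp loader subunit, had levels of -1.28 and -1.34 in si-SYISL, against -1.02 and -1.01 in si-NC, with a small gap inside each group and a wider one between them. Its difference of -0.46 ± 0.11 log2 (SE, adjusted p = 0.218) had the smallest p of these 9 genes.

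The loader subunits Rfc2, Rfc4 and Rfc5 differed by -0.11, -0.11 and -0.09 log2, and each had overlapping groups. For Rfc4 a dimmer probe for the same transcript gave -1.04 log2, so its probes disagree in size. Fen1, the nuclease that trims Okazaki fragments, had levels of 0.97 and 0.88 in si-SYISL, against 0.95 and 1.24 in si-NC. The groups overlapped, and the difference was -0.33 ± 0.15 log2 (SE). The single-strand binding subunits Rpa1 and Rpa2 differed by -0.14 and -0.36 log2 and the ligase Lig1 by -0.11 log2, with overlapping groups in each.

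**Figure D4:**
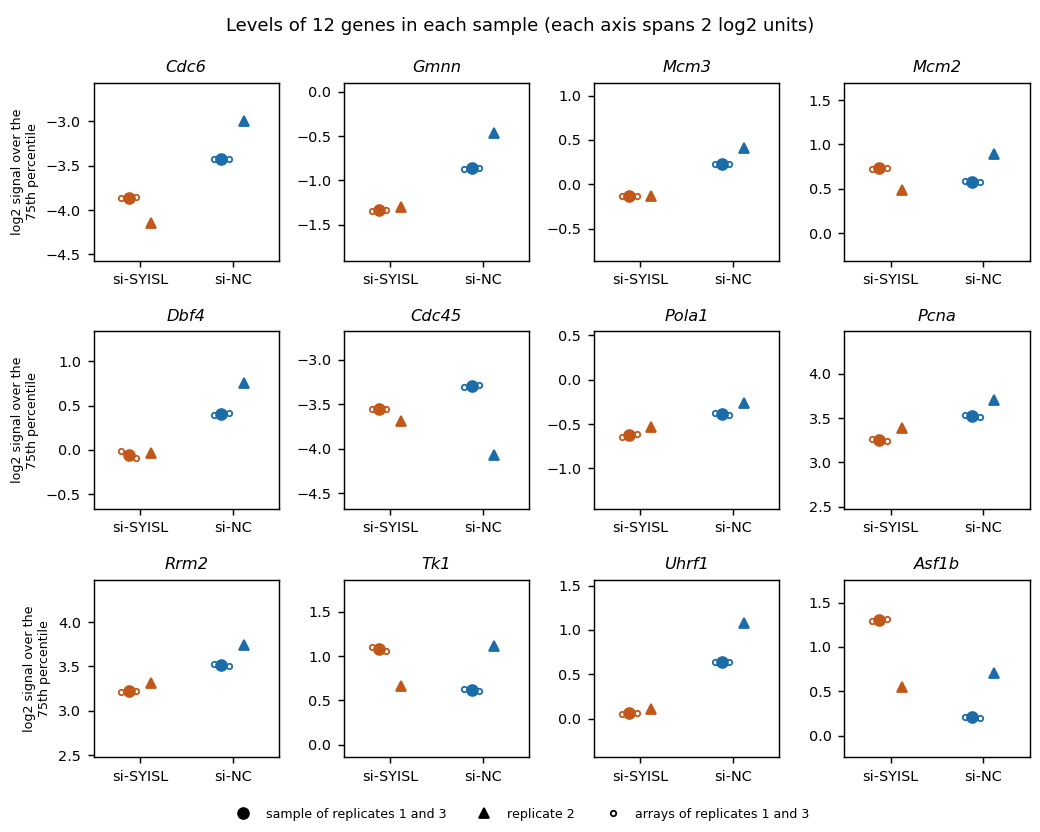
Level (vertical axis, log2 signal over the array's 75th percentile; each axis spans 2 log2 units) of 12 genes in si-SYISL (left) and si-NC (right); large circles are the sample of replicates 1 and 3, triangles replicate 2, and small open circles the arrays of replicates 1 and 3. In Cdc6, Gmnn, Mcm3, Dbf4, Pola1, Pcna, Rrm2 and Uhrf1 both si-SYISL samples lie below both si-NC samples, and in Mcm2, Cdc45, Tk1 and Asf1b the groups overlap.

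Nucleotide supply genes had a median difference of -0.41 log2, and the 5 genes did not share a direction. Both ribonucleotide reductase subunits were lower in both si-SYISL samples. Rrm2, the small subunit whose amount limits the enzyme in S phase, had levels of 3.22 and 3.31 in si-SYISL, against 3.52 and 3.74 in si-NC, with a difference of -0.53 ± 0.13 log2 (SE, adjusted p = 0.218). For Rrm1, the large subunit, the levels were 1.71 and 1.65 in si-SYISL, against 1.86 and 2.01 in si-NC, with a difference of -0.41 ± 0.12 log2 (SE, adjusted p = 0.279). The groups were separate for both subunits.

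Dut, which removes dUTP and provides the precursor of thymidylate, had levels of 0.18 and 0.41 in si-SYISL, against 0.48 and 0.70 in si-NC. These groups did not overlap either, with a difference of -0.46 ± 0.15 log2 (SE, adjusted p = 0.295). Neither thymidylate enzyme was lower in both si-SYISL samples. Tyms, thymidylate synthase, had levels of 1.45 and 1.63 in si-SYISL, against 1.42 and 1.23 in si-NC, higher in both si-SYISL samples as measured and 0.05 ± 0.14 log2 (SE) from the median feature. Tk1, the thymidine salvage kinase, had levels of 1.08 and 0.67 in si-SYISL, against 0.62 and 1.11 in si-NC. The samples of Tk1 crossed over, and its difference of -0.15 ± 0.24 log2 (SE) turned to 0.12 without replicate 2 of si-NC and to 0.10 without replicate 2 of si-SYISL.

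The 4 genes that act on chromatin behind the fork had a median difference of -0.11 log2 (0.01 under quantile normalisation), which covers both the second lowest and the highest difference of the 47. Uhrf1, which guides the maintenance methyltransferase to newly copied DNA, had levels of 0.06 and 0.11 in si-SYISL, against 0.64 and 1.08 in si-NC. Both si-SYISL samples were the lower ones, with a difference of -0.94 ± 0.19 log2 (SE, adjusted p = 0.148). A much dimmer probe, assigned through another Uhrf1 transcript, gave 0.27 log2, so the probes of Uhrf1 had opposite signs. Asf1b, a histone chaperone, had levels of 1.31 and 0.55 in si-SYISL, against 0.20 and 0.71 in si-NC. Only the si-SYISL sample of replicates 1 and 3 stood high, and the difference of 0.31 ± 0.33 log2 (SE) became -0.10 without it.

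The chromatin assembly factor gene Chaf1b had levels of -0.11 and -0.27 in si-SYISL, against -0.32 and -0.36 in si-NC, higher in both si-SYISL samples as measured but -0.02 ± 0.12 log2 (SE) from the median feature. A dimmer probe for the same Chaf1b transcript gave 0.02 log2. Its partner subunit Chaf1a differed by -0.20 log2, with overlapping groups.

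How far below si-NC the replication genes lay depended on which samples were set against each other. The comparisons below match samples by replicate number. The numbers gave no sign of pairing (deviations correlated at -0.03 between the groups over all features), so this matching is arbitrary. The crossed comparisons were not made. With replicate 2 of si-SYISL against replicate 2 of si-NC, the median over the 47 genes was -0.46 log2 and 44 were below 0. With the samples of replicates 1 and 3 alone, the median was -0.07 log2 and 32 were below 0. In both, 29 of the 47 were below 0, where 33.0% of all features were, and 15 more were below 0 only with replicate 2. Lying below 0 only with replicates 1 and 3 were the other 3, Cdc7, Cdc45 and Tyms. In total, 43 of the 47 lay further down with replicate 2, where 54.2% of all features did.

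The samples of a group differed in both groups, but in opposite directions. Within si-SYISL the 47 genes were at a median of -0.09 log2 in replicate 2 minus the sample of replicates 1 and 3, and 33 were lower in replicate 2. Within si-NC the same median was 0.17 log2, and 11 were lower in replicate 2. These values use the levels as measured, and the share over all features was not taken. The levels were also centred on each sample's median feature. The genes' median deviation from their own mean over the 4 samples was then -0.05 and -0.21 in si-SYISL, and 0.01 and 0.20 in si-NC. Leaving out replicate 2 of si-SYISL brought the median of the 47 genes to -0.19 log2, the smallest of the 4 values with 1 sample left out, and leaving out the averaged si-SYISL arrays brought it to -0.40. The number of genes lower in every si-SYISL sample ranged from 21 to 35 over these 4 choices, where 20.4% to 26.2% of all features were, and it was 35 when the averaged si-SYISL arrays (replicates 1 and 3) were left out. Single genes moved too: with 1 sample left out the difference ran from -0.46 to -0.11 log2 for Mcm2, from -0.64 to -0.20 for Mcm5, from -0.98 to -0.42 for Orc1, from -0.92 to -0.43 for Mcm10, from -0.73 to -0.29 for Prim1 and from -0.49 to -0.16 for Fen1. Replicates 1 and 2 of both groups shared a scan and replicate 3 of both had another. The median was -0.30 log2 within the first scan and -0.08 within the other, which holds 1 array per group.

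**Figure D5:**
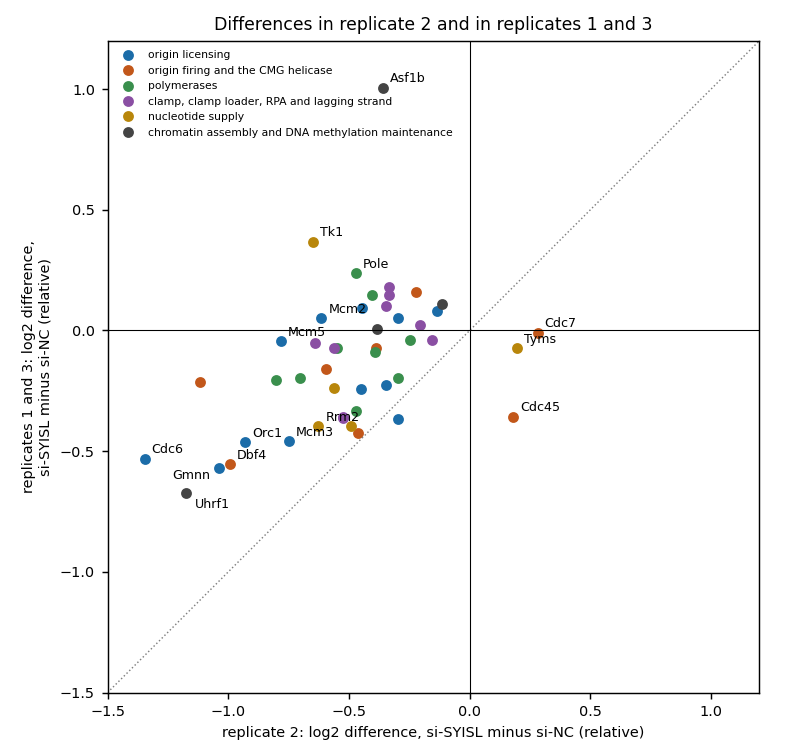
Log2 difference, si-SYISL minus si-NC, relative to the median feature, for the 47 genes with replicate 2 alone (horizontal axis) and with the samples of replicates 1 and 3 alone (vertical axis); colours are roles and the dotted line marks equal values. Of the 47 points, 43 lie left of the dotted line and 29 lie below 0 on both axes. Samples are matched by replicate number only.

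The probes of the replication genes gave mostly bright signals, and the difference between the groups varied with brightness over all features. When all features were ranked by mean signal and split into 4 bins of equal size, from dim to bright, 1 of the 47 (Cdc7) fell in bin 1, 4 in bin 2, 25 in bin 3 and 17 in bin 4. The median feature lay at -0.09 log2 in bin 3 and at -0.08 in bin 4, while the replication genes there had medians of -0.36 and -0.24. In those bins 25.4% and 23.1% of all features were lower in both si-SYISL samples. The part of brightness in the differences was not tested further.

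Myotube markers differed along with the groups. All 8 muscle identity genes, among them Des, Myod1, Myog and Chrna1, were above background on all 6 arrays. Their differences ran from -0.78 log2 for Myod1, lower in both si-SYISL samples, to 0.38 log2 for Mymk, higher in both, with a median of -0.13 log2. The 10 myotube genes (Myh3, Myh8, Acta1, Ckm, Tnnt3, Tnnc2, Tnni1, Mylpf, Mymx and Ttn) were each higher in both si-SYISL samples as measured, an order that 46.3% of all features had, with a median difference of 0.63 log2, and 0 of them passed the adjusted limma test. Relative to the median feature they ran from -0.004 log2 for Mylpf and 0.15 for Ttn to 1.24 for Tnnt3, with 9 of the 10 above it. Their median level, as log2 over the sample's median feature, was 5.13 and 5.03 in si-SYISL, against 4.17 and 4.08 in si-NC. All 10 were above background on all 6 arrays. The part of this difference in the lower level of the replication genes was not tested. The 5 fibroblast genes had a median difference of -0.22 log2, but Col1a1 was at 0.34 log2. Their median level over the sample's median feature was 8.003 and 8.002 in si-SYISL, against 7.563 and 7.601 in si-NC. Col1a1 was the middle gene in every sample, so these values are its own levels. For the other 4 fibroblast genes the groups overlapped. Of the macrophage and blood genes, with a median of 0.06 log2, Hba-a1 was at 0.98 log2. Adipocyte, endothelial and neural genes had medians of -0.01, 0.02 and -0.14 log2. The part of these genes in the lower level of the replication genes was not tested either.

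The 59 other genes of the pathway showed a like displacement, with a median difference of -0.29 log2, 50 of them below the median feature and 0 called. Of the 59, 29 had both si-SYISL samples at the low end and 10 at the high end, with no overlap between the groups. With the levels as measured, 15.8% and 46.3% of all features had these orders. The first of these shares was 24.1% under quantile normalisation. By list, 12 of 29 replisome and checkpoint genes, 9 of 20 nucleotide metabolism genes and 8 of 10 replication-coupled chromatin genes were lower in both, with medians of -0.26, -0.21 and -0.47 log2. E2F-type words were found in promoters of 11 of the 50 with an entry (22%).

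Clspn, the claspin adaptor of the replication checkpoint, had levels of -3.51 and -3.89 in si-SYISL, against -3.00 and -2.76 in si-NC, a difference of -0.98 ± 0.19 log2 (SE). Slbp, which binds the stem-loop of histone messenger RNAs, had levels of -0.55 and -0.60 in si-SYISL, against -0.04 and 0.00 in si-NC, a difference of -0.72 ± 0.11 log2 (SE). Dna2, a nuclease and helicase of Okazaki fragment processing, differed by -0.79 ± 0.14 log2 (SE). The groups were separate for all 3.

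Among nucleotide metabolism genes, Ppat, which catalyses the first committed step of purine synthesis, had levels of -2.20 and -1.61 in si-SYISL, against -0.89 and -0.79 in si-NC. Its difference of -1.22 ± 0.23 log2 (SE) was the lowest of the 59. Dck, which salvages deoxycytidine, had levels of -3.17 and -3.13 in si-SYISL, against -2.39 and -2.13 in si-NC, a difference of -1.06 ± 0.14 log2 (SE). Samhd1, which breaks deoxynucleotides down, ran the other way, with levels of 2.17 and 2.12 in si-SYISL, against 1.60 and 1.62 in si-NC, a difference of 0.37 ± 0.11 log2 (SE). In this list 5 of 20 genes were higher in both si-SYISL samples, Samhd1, Dctd, Impdh2, Shmt1 and Umps. Dctd, which deaminates dCMP, was at 0.34 ± 0.11 log2 (SE) and Impdh2, an enzyme of guanine nucleotide synthesis, at 0.22 ± 0.11 log2 (SE), both named after their values were seen. Of the chromatin genes, the histone chaperones Asf1a and Nasp differed by -0.60 ± 0.15 and -0.46 ± 0.12 log2 (SE), and the remodeller Hells by -0.52 ± 0.15 log2 (SE), all 3 with separate groups.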

How the data were processed

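The deposited scanner files hold intensity (gProcessedSignal, corrected for background and spatial trend within an array) and flags of 0 or 1 per spot, a unit called other here, per the file headers. The file headers name Feature Extraction 11.0.1.1 and the submitters' processing notes name 10.5.1.1. Log2 values with nearly equal quantiles in every column make up the deposited series matrix, which served as an alternative, with 0 columns left unmapped.

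In R 4.3.3 with data.table (version 1.17.8), control and outlier spots were dropped, the 75th percentile of an array was subtracted from its log2 signals, and repeated spots were averaged. Of 39429 probes, 27234 were paired with 1 of 20659 symbols by RefSeq accession (GRCm38.p6) and 12195 stayed unnamed. Probe coordinates refer to another assembly and are not given. A probe was kept when all 3 arrays of either group had it well above background, and a gene took its brightest kept probe. The two-sided test was that of limma 3.58.1 (lmFit, eBayes), which was also tested on simulated data. Python 3.11.15, pandas 2.3.3, numpy 2.4.6 and matplotlib 3.10.9 made the counts and figures. Precision is limited by the 2 samples per group.

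The genes and lists were chosen with earlier results of these data known. Levels are printed for the 3 genes of each role with the smallest p, for Mcm2, Cdc6, Cdt1, Cdc45, Pcna, Rrm2, Tk1 and Uhrf1, for genes with probes of opposite sign, for genes higher in both si-SYISL samples, and for the 3 other pathway genes of each list with the smallest p. Replicate numbers were checked for pairing: the deviations of replicate 2 from the sample of replicates 1 and 3 correlated at -0.03 between the groups over all features, so the main fit did not pair samples by number. The comparisons with replicate 2 alone, and with replicates 1 and 3 alone, match samples by number as a description. Alternatives were normexp background (offset 50), quantile and median-shift normalisation, the series matrix, 2 other filters, every probe or the mean of probes, a variance trend, 6 arrays as 6 samples, replicate and scan blocks, and each sample left out. The scans taken alone were added after seeing the data.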

Additional observations from a re-analysis of the deposited data

How the results depend on the processing

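Of the 47 genes, 28 lay below 0 in all 20 settings. The limma fit called 183 features with normexp background, 1 with median shift, 904 with a variance trend, 83 with a scan block, and 9762 features and 12 of the 47 genes with the 6 arrays as 6 samples, which counts the near-identical arrays as separate samples. With the replicate block it called 0 of either, and no call changed. With 1 sample left out it called 0 to 1379 features and 0 to 1 of the 47 genes. The 1379 features and the 1 gene (Uhrf1) came when the averaged si-NC arrays were left out, and 276 features without replicate 2 of si-NC. Genes lower in every si-SYISL sample numbered 21 to 35 with 1 sample left out (20.4% to 26.2% of all features), and 41 with replicate 2 alone (28.9% of all features). The share of all features was larger with replicates 1 and 3 alone (36.6%) and in the scan of replicate 3 (37.0%). The 41 genes therefore describe replicate 2 only. The median of the 47 genes was -0.40 to -0.19 with 1 sample left out, -0.073 without replicate 2 of both groups and -0.085 in the scan of replicate 3. That of the other pathway genes was -0.19 with quantile normalisation, -0.19 with the series matrix, -0.17 without replicate 2 of both groups, -0.39 with replicate 2 alone and -0.18 in the scan of replicate 3. The cause was not tested.

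Several signs turned. With replicates 1 and 3 alone 32 of the 47 genes were below 0, and those above it included Mcm2 (0.052), Mcm6 (0.053) and Mcm7 (0.092). With normexp background the differences were 0.041 for Cdt1, 0.018 for Cdc45, 0.074 for Gins3 and 0.0068 for Lig1. With quantile normalisation they were 0.10 for Cdt1, -0.0090 for Cdc7, 0.071 for Gins3, 0.013 for Pole, 0.037 for Rfc2, 0.030 for Rfc4, 0.040 for Rfc5, 0.018 for Lig1 and 0.13 for Chaf1b. With the series matrix they were 0.099 for Cdt1, -0.0058 for Cdc7, 0.072 for Gins3, 0.0093 for Pole, 0.031 for Rfc2, 0.025 for Rfc4, 0.039 for Rfc5, 0.014 for Lig1 and 0.12 for Chaf1b. Chaf1b was at 0.015 with the filter on all 6 arrays, and Cdc7 at -0.23 with the mean of probes. With the 6 arrays as 6 samples Gins3 was at 0.020, Tk1 at 0.017 and Chaf1b at 0.024. Leaving out 1 sample gave ranges of -0.025 to 0.28 for Cdc7, -0.47 to 0.28 for Cdc45, -0.16 to 0.086 for Gins3, -0.42 to 0.15 for Pold2, -0.37 to 0.12 for Pole, -0.32 to 0.12 for Rfc2, -0.29 to 0.13 for Rfc5, -0.41 to 0.12 for Tk1, -0.48 to 0.087 for Chaf1a, -0.13 to 0.11 for Chaf1b, -0.18 to 0.11 for Cdt1, -0.27 to 0.012 for Rpa1, -0.026 to 0.14 for Tyms and -0.10 to 0.74 for Asf1b.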
